A study of Drosophila melanogaster with 24 samples.

Results

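The transcripts of 10 male accessory gland protein genes were followed through 24 Affymetrix arrays of whole adult Drosophila melanogaster: Acp26Aa, Acp26Ab, Acp29AB, Acp32CD, Acp36DE, Acp53C14a, Acp53C14b, Acp53C14c, Acp62F and Acp76A. They were taken by name, and each is represented by the probe set that the platform annotation assigns to that gene only. This gave 10 probe sets for 10 genes, 1 for each, among 18769 probe sets tested. Values are log2 intensities, so a difference of 1 is a 2-fold difference in intensity.

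The accessory glands of the male fly secrete most of the proteins that travel with sperm in the ejaculate. In the mated female these proteins act on egg laying, sperm storage, receptivity to further mating and the female's immune state. The glands' main cells make most of them, and the genes are known for expression that is strong in males and close to nothing in females. Acp26Aa encodes ovulin, a prohormone-like protein that raises ovulation in the mated female, and Acp26Ab is its immediate neighbour in the genome. Acp36DE, a large glycoprotein, and Acp29AB, a C-type lectin, are needed for normal sperm storage. Acp62F encodes an inhibitor of trypsin-like proteases, and Acp76A encodes a protein of the serpin family of protease inhibitors. Acp53C14a, Acp53C14b and Acp53C14c are small related seminal protein genes. The Release 6 gene table lists Acp53C14a, Acp53C14b, Acp53Ea and Acp53C14c in a row. It places 5 members on chromosome arm 2L, 3 on 2R and 2 on 3L.

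The study altered Hr96, which encodes the nuclear receptor DHR96, in flies 0 to 3 days old that were frozen as they emerged, and kept the sexes apart. Over-expression flies (w;Act5C-GAL4/UAS:OE_Dhr96OE_35) carried 1 transgene line, number 35, under Act5C-GAL4, and their controls (w;Act5C-GAL4/+) carried the driver alone. Knockdown flies (w;arm-GAL4/+;UAS:RNAi_Dhr96Hp_3/+) carried 1 RNA interference line, number 3, under arm-GAL4, and their controls (w;arm-GAL4/+) had arm-GAL4 alone. Act5C-GAL4 and arm-GAL4 use promoters of broadly expressed genes, so neither is directed at the accessory gland. Each of the 4 genotypes has 3 arrays of males and 3 of females, and replicates 1, 2 and 3 were reared on separate diet batches. The labels give neither the mating state of the flies nor their age within the collection window.

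Hr96 was higher in over-expression males, while no fall was detected in males labelled as knockdown. In males its log2 intensity was 9.28, 7.61 and 9.39 with over-expression against 6.66, 6.50 and 6.86 in Act5C-GAL4 controls, a difference of 2.09 (SE 0.31, n = 3 a group, limma adjusted p = 0.000739). In males labelled as knockdown it was 6.47, 6.60 and 6.43 against 6.35, 6.68 and 6.90 in arm-GAL4 controls, a difference of -0.14 (limma adjusted p = 1.0). That group is therefore called the labelled knockdown throughout. Array medians on the linear scale were 53.5 to 66.3, and arrays of one group correlated at 0.974 to 0.992 over all probe sets. For the accessory gland genes, a pair of male arrays stood above the rest. Averaged over the 10 members, Act5C-GAL4 control replicate 3 lay 0.39 and labelled knockdown replicate 2 lay 0.40 above the mean of the 12 male arrays, while the others lay between -0.27 and 0.11.

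All 10 members were far higher in every male array than in any female array. In males the median of a member over 12 arrays ran from 9.66 to 13.44, and in females from 3.55 to 5.79. The lowest male value exceeded the highest female value by 3.94 for Acp53C14c, by 7.26 for Acp53C14a and by a median of 5.92 over the 10. Male minus female differences passed limma for all 10 members in all 4 genotypes, where 14.1% of all probe sets were called higher in males in over-expression flies, 15.5% in Act5C-GAL4 controls, 17.3% in the labelled knockdown and 16.4% in arm-GAL4 controls. The median difference was 6.77 in over-expression flies, 7.09 in Act5C-GAL4 controls, 7.25 in the labelled knockdown and 6.79 in arm-GAL4 controls, and the largest limma adjusted p of a member in any genotype was 1.06e-14. Male and female groups did not overlap for any member, with males higher, which held for 15.5%, 17.2%, 20.2% and 17.1% of all probe sets in the same 4 genotypes in the order over-expression, Act5C-GAL4 control, labelled knockdown and arm-GAL4 control. The genes' male-limited expression is textbook knowledge, so these values are a check of the sex labels and of the probe sets.

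**Figure D1:**
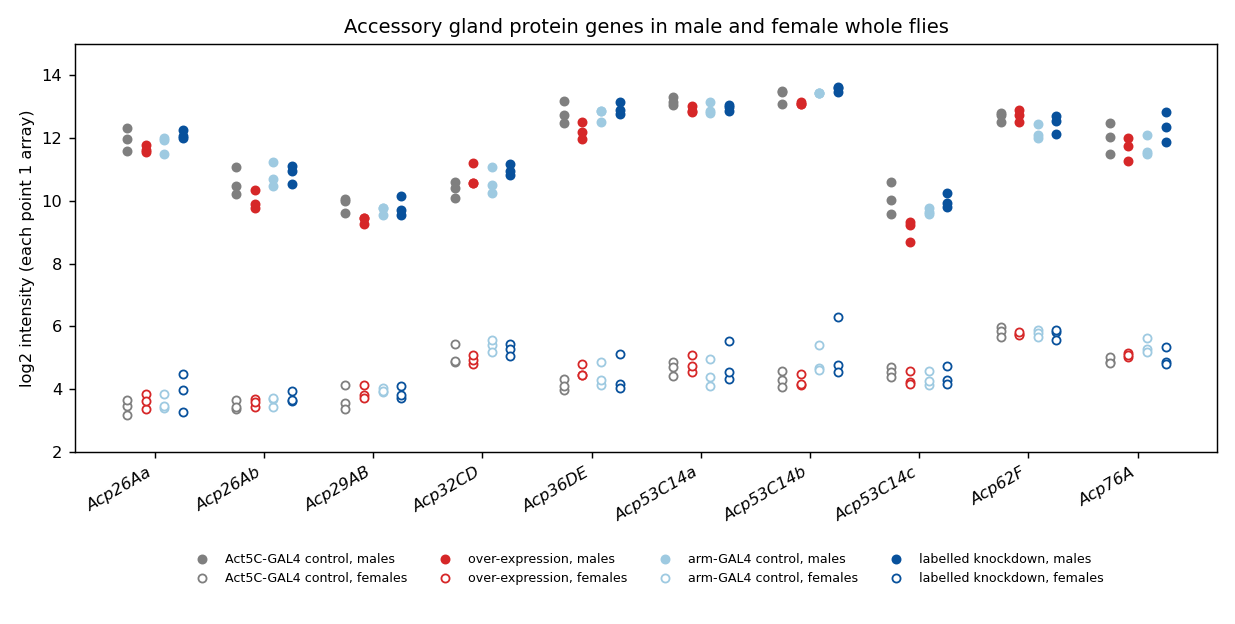
Log2 intensity of the 10 accessory gland protein genes (x axis) on each of the 24 arrays (y axis, 1 point an array), with males as filled and females as open circles, coloured by genotype. Male and female arrays do not overlap for any member, and the smallest gap is 3.94 (Acp53C14c).

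The female values show how much of each signal is background. Acp26Aa, Acp26Ab and Acp29AB lay below the array's lower quartile, a log2 intensity of 4.38 to 4.64, on all 12 female arrays. Acp32CD, Acp62F and Acp76A lay above it on all 12, with female medians of 5.14, 5.79 and 5.07. No level of one probe set is compared with that of another here, since probes differ in how brightly they report. Within groups the SD of a member was 0.12 to 0.43 in males (median 0.26) and 0.14 to 0.55 in females (median 0.24), and it was larger in males for 5 of the 10.

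Among the comparisons of genotypes, Hr96 over-expression in males was the one in which a member passed the test. Acp53C14c was lower than in Act5C-GAL4 controls, and 8 of the 10 members had a mean below their control, with a median difference of -0.32 over the 10 against 0.03 over all probe sets. Over all probe sets, 44.8% had a difference below 0 and 0.73% were called lower. Acp62F and Acp32CD had means above their control. Whole flies were measured, so fewer accessory gland cells and less RNA per cell cannot be told apart in any of these differences.

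Acp53C14c, the member at the far end of the gene cluster, measured 10.02, 9.59 and 10.59 in the 3 Act5C-GAL4 control males and 9.34, 8.69 and 9.23 in over-expression males. It measured 9.65, 9.59 and 9.77 in arm-GAL4 controls and 9.92, 10.25 and 9.80 in the labelled knockdown. All 3 over-expression males thus lay below all 9 other males, a pattern that 2.95% of all probe sets shared. The mean was 9.09 ± 0.35 against 10.07 ± 0.50 (SD, n = 3). It fell by 0.98 on the log2 scale, 1.97-fold lower on the intensity scale (SE 0.22, 95% interval -1.43 to -0.52, n = 3 a group, limma adjusted p = 0.0243). Within diet batches 1, 2 and 3 the difference was -0.68, -0.89 and -1.36. The call rests on the pooled spread and on single arrays: the limma adjusted p was 0.179 with the 6 compared arrays alone and 0.0558 with the 12 male arrays alone, with the difference at -0.98 in both fits. It was 0.0583 without control replicate 1, 0.231 without control replicate 3, where the difference was -0.71, and 0.182 without over-expression replicate 2, where it was -0.78. With the diet batch as a block it was 0.0179 over all 24 arrays and 0.0305 over the 12 male arrays.

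The other members of that cluster had smaller differences. Acp53C14a measured 13.07, 13.15 and 13.30 in controls and 12.83, 13.01 and 12.88 with over-expression, groups that do not overlap, with a difference of -0.26 (SE 0.24, limma adjusted p = 0.657). Its over-expression values did overlap those of arm-GAL4 controls, 12.88, 12.80 and 13.14. Acp53C14b measured 13.09, 13.49 and 13.47 in controls and 13.14, 13.08 and 13.08 with over-expression, a difference of -0.25 (SE 0.29, limma adjusted p = 0.749). Control replicate 1 lay within the over-expression range and the other 2 controls above it. Acp53Ea, the gene between Acp53C14b and Acp53C14c and itself a seminal protein gene, measured 12.48, 12.76 and 13.09 in controls and 12.27, 12.13 and 12.39 with over-expression. Those groups did not overlap either, and the difference of -0.52 did not pass limma (adjusted p = 0.177). Non-overlap with the over-expression group lower occurred in 8.98% of all probe sets, and in 3 of the 10 members, Acp29AB, Acp53C14a and Acp53C14c.

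Among the sperm storage genes, Acp29AB measured 9.63, 9.99 and 10.06 in controls and 9.44, 9.45 and 9.25 with over-expression. Every over-expression male lay below the 9 other males, whose lowest value was 9.56. The difference of -0.51 (SE 0.18, 95% interval -0.89 to -0.14) did not pass limma (adjusted p = 0.217). Acp36DE measured 12.48, 12.74 and 13.19 in controls and 11.97, 12.20 and 12.50 with over-expression, a difference of -0.58 (SE 0.24, limma adjusted p = 0.315). The highest over-expression male and the lowest control male crossed by a narrow margin, and 8 of the 9 other males lay above the over-expression group.

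For the ovulin gene Acp26Aa the values were 11.60, 11.97 and 12.32 in controls and 11.62, 11.56 and 11.77 with over-expression, a difference of -0.31 (SE 0.23, limma adjusted p = 0.588). Control replicate 1 lay among the over-expression values and the other 2 above them. Its neighbour Acp26Ab measured 10.21, 10.47 and 11.09 in controls and 9.89, 10.34 and 9.78 with over-expression, a difference of -0.59 (SE 0.21, 95% interval -1.03 to -0.15, limma adjusted p = 0.226). Over-expression replicate 2 lay among the controls and the other 2 below them.

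Neither of the protease inhibitor genes passed the test. Acp62F measured 12.75, 12.51 and 12.79 in controls and 12.91, 12.53 and 12.73 with over-expression, interleaved values with a difference of 0.04 (95% interval -0.28 to 0.35, limma adjusted p = 0.939). Acp76A measured 11.51, 12.03 and 12.48 in controls and 11.74, 11.27 and 12.02 with over-expression, a difference of -0.33 (SE 0.25, limma adjusted p = 0.584), again with overlap. Acp32CD, another accessory gland gene, measured 10.08, 10.42 and 10.61 in controls and 10.56, 11.21 and 10.57 with over-expression. Its difference of 0.41 (95% interval -0.03 to 0.86, limma adjusted p = 0.421) was positive, and over-expression replicate 2 was the highest of these 6 arrays.

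**Figure D2:**
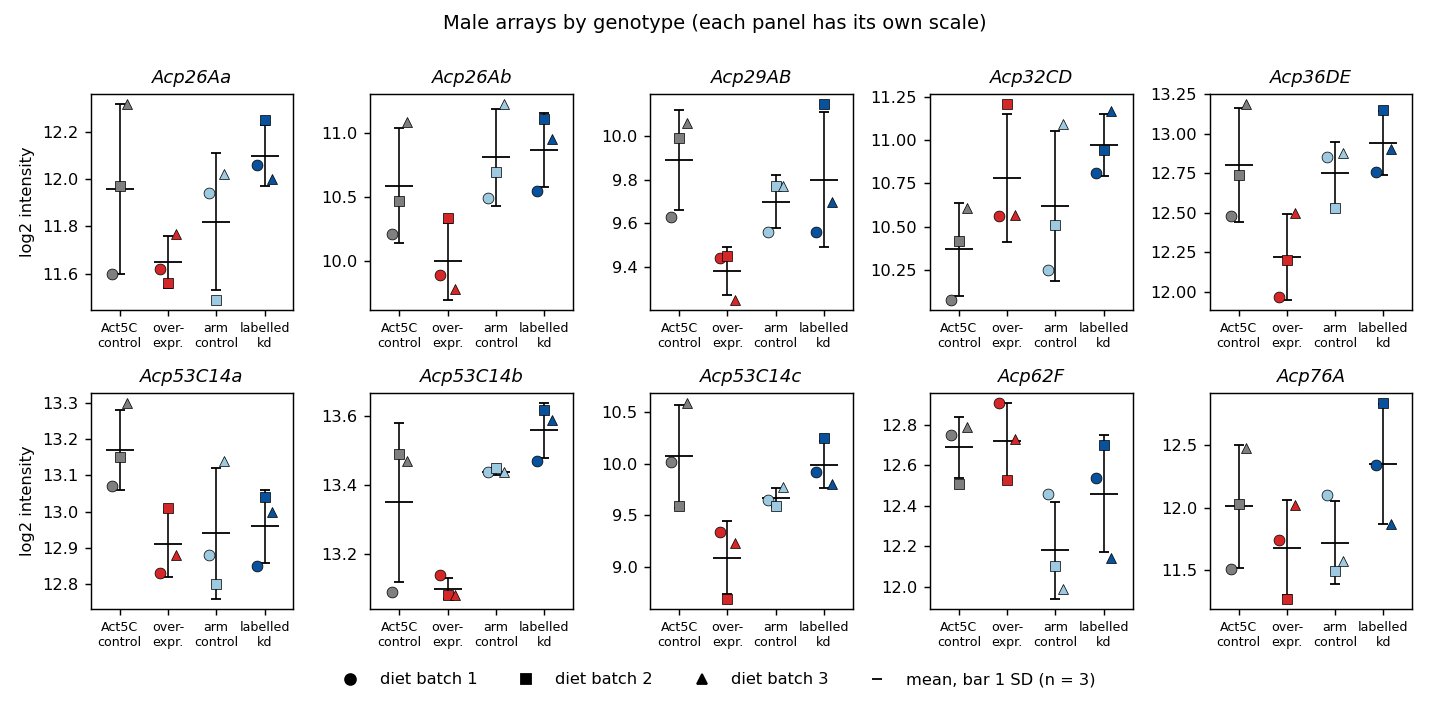
Log2 intensity of each member (1 panel a gene, each with its own y axis) in the 12 male arrays by genotype, with a marker shape for each diet batch, the group mean as a line and 1 SD as a bar (n = 3). Over-expression males have the lowest group mean for 8 of the 10 genes, and for Acp29AB and Acp53C14c all 3 lie below the 9 other males.

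Across the 10 members, 4 had an unadjusted limma p under 0.05 in over-expression males (12.8% of all probe sets) and 1 passed after adjustment, where 1.17% of all probe sets were called in either direction. The batches differed: the median member difference was -0.08 in batch 1, -0.41 in batch 2 and -0.51 in batch 3, with 5, 8 and 10 members below 0. In all 3 same-batch pairs 5 members were lower, as were 18.8% of all probe sets. Without control replicate 3, the array on which these genes stood high, the median over the 10 members was -0.19, and without control replicate 1 it was -0.54.

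In the labelled knockdown males all 10 members had means above their arm-GAL4 controls and none passed the test. The median difference was 0.23 against 0.00 over all probe sets, of which 48.9% were above 0 and 0.0266% were called. The 10 limma adjusted p-values were all 1.0, and 1 member, Acp76A, had an unadjusted p under 0.05 (2.18% of all probe sets). Acp76A measured 12.10, 11.49 and 11.57 in controls and 12.34, 12.84 and 11.87 in the labelled knockdown, a difference of 0.63 (SE 0.25, 95% interval 0.12 to 1.15). Control replicate 1 lay inside the labelled knockdown range, and labelled knockdown replicate 2 was the highest of all 12 male arrays.

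Acp53C14b and Acp53C14c were the 2 members whose groups did not overlap in this comparison, with the labelled knockdown higher, which held for 2.91% of all probe sets. Acp53C14b measured 13.44, 13.45 and 13.44 in controls and 13.47, 13.62 and 13.59 in the labelled knockdown, a difference of 0.12. The Acp53C14c difference, from the values given above, was 0.32 (SE 0.22, 95% interval -0.13 to 0.77). The ovulin gene Acp26Aa measured 11.94, 11.49 and 12.02 in controls and 12.06 and 12.25 in labelled knockdown replicates 1 and 2, with replicate 3 just below the highest control, a difference of 0.28. The other 6 differences lay between 0.02 for Acp53C14a and 0.36 for Acp32CD.

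Among those 6, Acp36DE measured 12.85, 12.53 and 12.88 in arm-GAL4 controls and 12.76, 13.15 and 12.90 in the labelled knockdown, a difference of 0.19. Acp29AB measured 9.56, 9.77 and 9.77 against 9.56, 10.15 and 9.70, a difference of 0.10. In both sperm storage genes replicate 2 of the labelled knockdown stood above every control and the other replicates lay among or close to them. Acp26Ab measured 10.49, 10.70 and 11.23 in controls and 10.55, 11.11 and 10.95 in the labelled knockdown, a difference of 0.06 within the control range. Acp62F measured 12.46, 12.10 and 11.99 against 12.54, 12.70 and 12.14, a difference of 0.28 (95% interval -0.03 to 0.60), with replicate 3 below the highest control. For Acp32CD, controls at 10.25, 10.51 and 11.09 spanned most of the labelled knockdown values of 10.81, 10.94 and 11.17. Acp53C14a values of 12.85, 13.04 and 13.00 lay wholly inside the control range.

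Replicate 2 carried much of this shift. The median member difference was 0.07 in batch 1, 0.52 in batch 2 and 0.03 in batch 3, with 7, 10 and 6 members above 0, and 5 members were higher in all 3 pairs (10.6% of all probe sets). Labelled knockdown replicate 2 was above the members' own male means for all 10 genes, and the same batch held the lowest arm-GAL4 control average, -0.16. When single arrays were left out in turn, or another setting was used, 7 to 10 members stayed above 0.

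**Figure D3:**
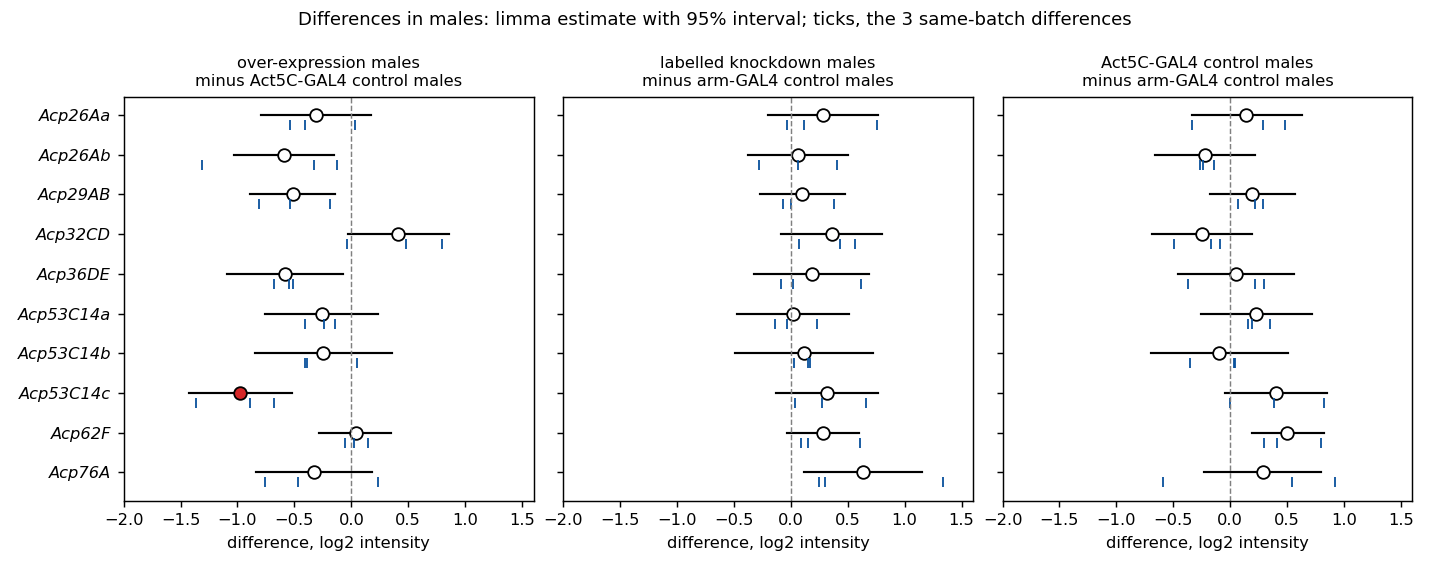
Difference in log2 intensity (x axis) for each member in 3 comparisons of males, as the limma estimate with its 95% interval; ticks below each are the differences within the 3 diet batches, and the filled circle is the value that passed the adjusted threshold. The filled circle is Acp53C14c at -0.98; the middle panel has all 10 estimates above 0.

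The 2 control genotypes differ in driver and carry no Hr96 transgene. Their comparison uses the same control arrays as the comparisons above and is no independent evidence beside them. None of the 10 passed limma, where 0.73% of all probe sets were called, and 7 had means above 0 (46.7% of all probe sets), with a median of 0.17. Single arrays carried that median: it was 0.01 without Act5C-GAL4 control replicate 3 and 0.07 without arm-GAL4 control replicate 2, with 5 members below 0 in each case. The trypsin inhibitor gene Acp62F measured 12.75, 12.51 and 12.79 in Act5C-GAL4 controls and 12.46, 12.10 and 11.99 in arm-GAL4 controls. These groups did not overlap, which held in that direction for 5.99% of all probe sets, and the difference was 0.50 (SE 0.15, 95% interval 0.19 to 0.82, limma adjusted p = 0.167). In size it exceeded the Acp62F differences of both transgene comparisons, 0.04 and 0.28. Acp53C14c differed by 0.40 (limma adjusted p = 0.599), with overlapping groups.

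Ordering the 4 male groups by mean, over-expression males were lowest for 8 members and arm-GAL4 controls for Acp62F. Labelled knockdown males were highest for 6, Act5C-GAL4 controls for 3, and over-expression males for Acp62F. Of the differences between any transgene group and its control, and between the controls, the Acp53C14c fall alone passed limma after adjustment. The rest of this order is a description, although some neighbouring groups did not overlap, as given above.

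The test of whether over-expression and the labelled knockdown acted differently on a member called 0 of 10 (0.261% of all probe sets), and 5 had an unadjusted limma p under 0.05 (6.81% of all probe sets). Of the 10 estimates 9 were below 0, against 44.9% of all probe sets, with a median of -0.60. These estimates share the same arrays and are not separate results. Act5C-GAL4 control replicate 3 and labelled knockdown replicate 2, on which the members stood high, both lower them. With single arrays left out the median ran from -0.76 to -0.41. Acp53C14c was at -1.30 (SE 0.31, 95% interval -1.94 to -0.66, limma adjusted p = 0.0977) and Acp76A at -0.96 (limma adjusted p = 0.508). For Acp76A the labelled knockdown difference was 1.34 in diet batch 2, against 0.25 in batch 1 and 0.3 in batch 3.

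In females, where the gland is absent, the same comparisons called no member. Over-expression females minus Act5C-GAL4 control females had a median member difference of 0.11, with 0 of 10 called by limma (0.874% of all probe sets) and 0 with an unadjusted p under 0.05 (16.4%). Labelled knockdown females minus arm-GAL4 control females had a median of 0.05 and 0 called (0.0213% of all probe sets), 0 with an unadjusted p under 0.05 (4.24%), with limma adjusted p of 0.983 to 0.996. The effect of over-expression in males minus that in females passed limma for 0 members (0.165% of all probe sets). Of these 10 estimates 8 were below 0 (42.3% of all probe sets), 4 had an unadjusted p under 0.05 (14.5%), and the limma adjusted p ran from 0.241 to 0.823.

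A few female arrays held more signal than others. Labelled knockdown females replicate 2 had the highest of the 12 female values for 5 members: Acp26Aa, Acp26Ab, Acp36DE, Acp53C14a and Acp53C14b. For Acp53C14b it read 6.29 against a female median of 4.57, and for Acp53C14a 5.55 against 4.63. The same array was highest for 9 of 26 genes on a list of other seminal fluid and sex peptide network genes. It was also highest for 3 of 6 ejaculatory duct and bulb genes, such as EbpII at 5.50 against a median of 4.22. Its mean deviation from the female means was 0.50 for the members, 0.39 for the duct list, 0.25 for the seminal list and 0.21 for 19 testis and sperm genes. The share of all probe sets that were highest on this array was not computed. For each member the array still lay at least 3.94 below every male array.

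Members varied together from array to array to differing degrees. Over the 12 male arrays the 45 pairs of members had a median Pearson r of 0.52, from -0.53 to 0.88, and 38 were above 0. After group means were removed the median was 0.45. These points share 12 arrays, whole-body RNA and one normalization. Pairs among the 1483 probe sets at least 2 log2 units higher in males had a median r of 0.41. Acp26Aa followed the mean of the other 9 most closely (r = 0.91), then Acp36DE (0.89), Acp29AB (0.78), Acp53C14b (0.76), Acp53C14c (0.74), Acp26Ab (0.72), Acp76A (0.69) and Acp53C14a (0.54). For Acp32CD (0.08) and Acp62F (-0.16) r was near or below 0. These values include the group differences, and in over-expression males both genes were above 0 while the other 8 were below. With group means removed their r was 0.26 and 0.13, still the lowest of the members. Within groups Acp32CD had an r of 0.88 with Acp26Ab and 0.85 with Acp53C14a, but -0.67 with Acp62F. Its median within groups over 9 pairs was 0.34.

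**Figure D4:**
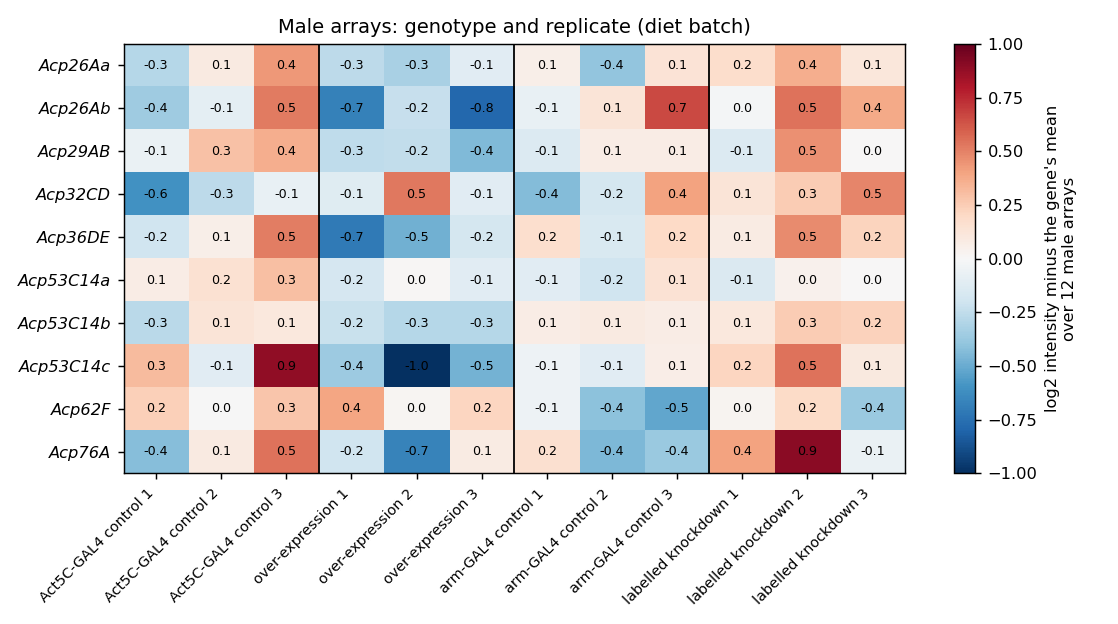
Log2 intensity minus the gene's mean over 12 male arrays, for each member (rows) and male array (columns, by genotype and replicate, which is the diet batch); red is above and blue below that mean. Act5C-GAL4 control 3 and labelled knockdown 2 are red for most genes, and the 3 over-expression arrays are blue for most.

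The male-high genes whose pattern over the 12 male arrays was most like the average of the members were named by Pearson r among 1473 candidates. They were Obp56f (r = 0.96), CG10029 (0.95), PH4alphaNE3 (0.95), Spn75F (0.94), Semp1 (0.92) and CG42789 (0.91). Obp56f, an odorant-binding protein family gene, fell by 0.80 in over-expression males against controls (limma adjusted p = 0.0253), and CG42789 was at -0.69 (limma adjusted p = 0.0515). The other 4 had differences of -0.33 to -0.62 that did not pass. Likeness over the same arrays includes the group differences, so falls in over-expression males follow in part from how these genes were chosen. With group means removed their r ran from 0.87 for Semp1 to 0.94 for CG10029.

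A list of other seminal fluid genes and genes of the sex peptide network was read in the same groups. Of the 26 that the array names singly, 0 passed limma in over-expression males, where 1.17% of all probe sets were called. An unadjusted limma p under 0.05 was found for 6 (12.8% of all probe sets). Below 0 were 18 (44.8% of all probe sets), with a median of -0.24. By diet batch the median was 0.03, with 15 of the 26 above 0, then -0.17 and -0.44. The lowest adjusted p was 0.119, for Sfp38D at -0.73. In the labelled knockdown 22 of the 26 were above 0 (48.9% of all probe sets) with a median of 0.14, and 0 were called. The median was 0.03 in batch 1, 0.3 in batch 2 and 0.03 in batch 3. Among the 21 that were at least 2 log2 units higher in males, 16 were below 0 with over-expression (median -0.26) and 18 above 0 with the labelled knockdown (median 0.17). The other 5, Acp95EF, Sfp65A, Esp, frma and hdly, had male minus female differences of -1.34 to 0.68. With over-expression 3 of these were above 0 (median 0.1).

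Sex peptide, SP, which triggers the long post-mating response of the female, did not pass the test in either comparison. It measured 11.80, 12.14 and 12.22 in Act5C-GAL4 controls and 12.12, 12.12 and 12.04 with over-expression, a difference of 0.04 (limma adjusted p = 0.935). In arm-GAL4 controls it measured 12.35, 12.35 and 12.09, and in the labelled knockdown 12.32, 12.39 and 12.44, a difference of 0.12. Dup99B, a related peptide gene of the ejaculatory duct, was at -0.34 with over-expression (limma adjusted p = 0.605). Sems, a protease of the sex peptide network that is needed for sex peptide to stay with sperm, was at -0.59 (limma adjusted p = 0.220), and its r with the members' average was 0.90. SP had an r of 0.47.

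Markers of neighbouring tissues were read in the same groups. The 6 ejaculatory duct and bulb genes analysed, of 9 listed, were all below 0 in over-expression males (median -0.23, 0 called). Over all probe sets 44.8% were below 0, and 0 of the 6 had groups that did not overlap. By diet batch the median was 0.06, with 4 of the 6 above 0, then -0.42 and -0.49. Their mean level was 11.25 to 12.01 with over-expression against 11.83 to 12.28 in controls. They were all above 0 in the labelled knockdown (median 0.18, 0 called), as were 48.9% of all probe sets. Of 19 testis and sperm genes, 14 were above 0 in over-expression males (median 0.26, 0 called; 55.2% of all probe sets were above 0), and their mean level was 8.99 to 9.18 against 8.77 to 8.98 in controls. The group mean was 8.88 in Act5C-GAL4 controls, 9.08 with over-expression, 9.11 in arm-GAL4 controls and 9.07 in the labelled knockdown. The arm-GAL4 control arrays lay at 8.96 to 9.19. In Act5C-GAL4 minus arm-GAL4 control males 17 of the 19 were below 0 (median -0.23, 1 called). What sets the 2 control lines apart was not tested. In the labelled knockdown 8 of the 19 were above 0 (median -0.03, 0 called). The duct list shares Dup99B with the seminal list and holds EbpIII, which was also bright in females. The testis list holds twe, with a male minus female difference of -1.94 in Act5C-GAL4 controls. It also holds aly and comr, with differences of 0.41 and 0.35 and low male means of 3.75 and 4.53 there. The part of these markers in the members' differences was not tested.

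The 5 regulator genes of the gland analysed, of 6 listed, were below 0 in over-expression males (median -0.26, 0 called), as were 44.8% of all probe sets. They were also below 0 in the labelled knockdown (median -0.09, 0 called), where 48.9% of all probe sets were above 0. In Act5C-GAL4 controls 3 of them, EcR, usp and Hr39, had male minus female differences of -1.11, -1.49 and -0.67, so they are not specific to the gland. There dve was at -0.22 (limma adjusted p = 0.458), and only prd was higher in males, at 3.07. The gene prd, which encodes a homeodomain factor needed for the gland to form, was at -0.26 in over-expression males against controls. Cyp4d21, a male-biased P450 gene of the fat body, fell by 2.76 in the same flies (limma adjusted p = 1.21e-06). The genes listed with it did not pass: fit was at -1.57 (limma adjusted p = 0.416) and Yp1 at -0.06 (limma adjusted p = 0.967). Both were lower in males than in females in Act5C-GAL4 controls.

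**Figure D5:**
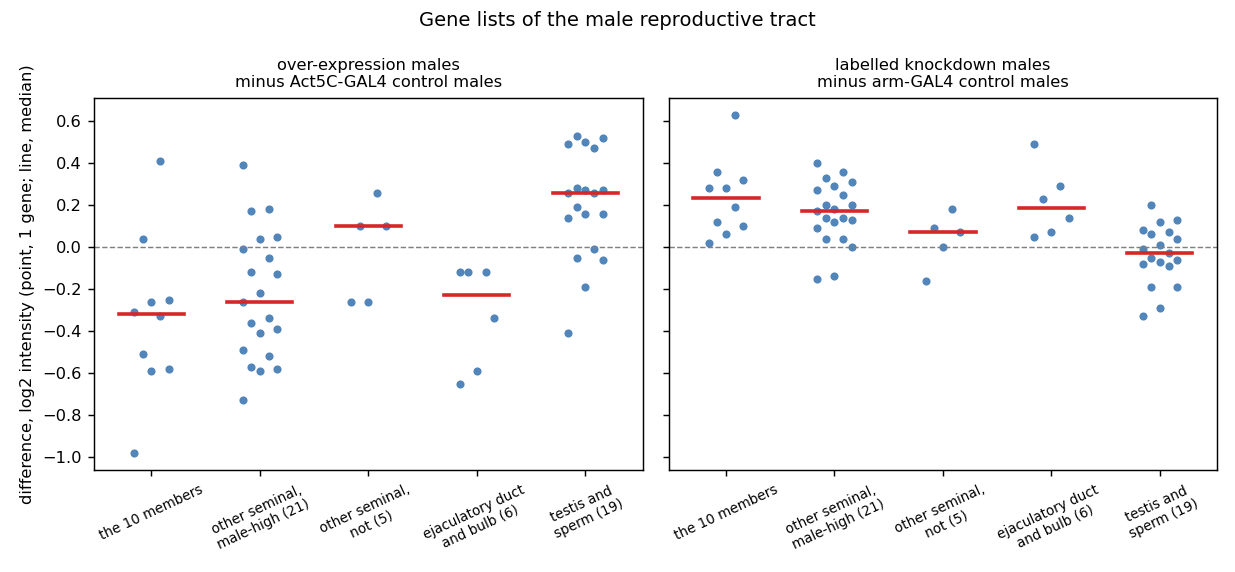
Difference in log2 intensity (y axis; 1 point a gene, red line the median) in over-expression and labelled knockdown males against their controls for the 10 members and lists of the male reproductive tract, with the number of genes in brackets. With over-expression the medians of the members, the male-high seminal genes and the duct list are below 0. Those of the 5 seminal-list genes that were not male-high and of the testis list are above 0. In the labelled knockdown the testis median is close to 0.

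No member was called for diet batch. A moderated F-test over the 3 batches in the 12 male arrays called 0 of 10 (0.65% of all probe sets), with limma adjusted p of 0.358 to 0.981. Acp26Ab and Acp32CD had unadjusted limma p of 0.0356 and 0.0378 (12.9% of all probe sets were under 0.05), and both were higher in batch 3 than in batch 1, by 0.48 and 0.44.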

How the data were processed

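The 24 arrays measured biotin-labelled cRNA from total RNA of whole flies, per the labels. The deposited values are linear intensities of 5.2 to 20754 that the authors made with RMA, per the submitters' processing notes. The RMA version and settings were not given in the sources used here. Log2 was taken of the deposited intensities with no pseudocount and no further normalization. Large differences are compressed by RMA, and the number of arrays limits precision.

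Of 18952 probe sets, 183 controls were left out and 18769 tested; 13647 name 1 gene. limma 3.58.1 in R 4.3.3 (lmFit, eBayes) was fitted to all 24 arrays with 8 group means (16 residual degrees of freedom, prior 5.19), two-sided, and p-values were adjusted by Benjamini-Hochberg across the whole table, with 0.05 as the threshold. The diet batch test used the 12 male arrays with group and batch. Tables and plots used Python 3.11.15 with pandas 2.3.3 and matplotlib 3.10.9. All 10 members matched the Release 6 gene table. Not analysed here were 6 genes of the other seminal list, Abd-B of the regulator list, and Est-6, Peb and PebII of the duct list. The steps were tested on simulated data.

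The members, lists and tests were chosen with earlier results of these data known. Named were the members, Hr96, SP and Dup99B, called genes of the other seminal list (there were 0), and the 6 most alike male-high genes. Acp53Ea, Sems, Sfp38D, EbpII, prd, Cyp4d21, fit and Yp1 were named after their values were seen. Per the labels, a replicate number stands for 1 diet batch, which pairs arrays across groups; deviations of same-numbered arrays correlated at -0.07 to 0.57. Alternatives were the batch as a block, a minimum mean log2 of 5, the compared arrays alone, a common median, quantile normalization within sex, trend and robust settings, array weights, leaving out each array and, added after seeing the data, the male arrays alone. The labels call replicates biological; p-values measure the spread between them.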

Additional observations from a re-analysis of the deposited data

How the results depend on the processing

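The direction and call of the 10 male against female differences held in every setting run, and no member was called in the labelled knockdown, control line or female comparisons in any. In over-expression males 1 member was called, and 1 with the replicate block, where Acp53C14c had a limma adjusted p of 0.0179. That count was 0 with the compared arrays alone, 0 with the 12 male arrays alone, 3 with array weights (with Acp26Ab at -0.82 and Acp29AB at -0.61) and 0 to 1 as single arrays were left out. For the difference between over-expression and the labelled knockdown it was 0, 1 with array weights (Acp53C14c at -1.46) and 0 to 1 with arrays left out, the 1 arising without Act5C-GAL4 control replicate 2. Over all 24 arrays the replicate block changed no call; over the 12 male arrays it took the over-expression count from 0 to 1 (Acp53C14c, limma adjusted p 0.0558 and 0.0305). With single arrays left out, signs turned for differences near 0: Acp62F ran from -0.05 to 0.13 with over-expression; Acp26Ab from -0.10 to 0.27, Acp29AB from -0.07 to 0.22 and Acp53C14a from -0.05 to 0.12 in the labelled knockdown; Acp26Aa from -0.04 to 0.32, Acp36DE from -0.14 to 0.21 and Acp53C14b from -0.17 to 0.04 between control lines; and Acp32CD from -0.18 to 0.24 in the difference of effects. Under array weights Acp32CD turned to -0.17 in the difference of effects. The cause was not tested. The 3 arrays a group and the low female signals limit what can be detected.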
